A study of Mus musculus with 4 samples.

Results

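Microtubule-associated proteins bind the surface of microtubules and set how stable, bundled and accessible to motors these are. The genes described here are Map1a, Map1b, Map1s, Map2, Map4, Map6, Map7d1 and Dcx, 8 of 21866 mouse protein-coding genes. They were chosen by name, and their m6A peaks were taken as all peaks over annotated exons of these genes. N6-methyladenosine (m6A) is a methyl mark on adenosine in RNA, and m6A-seq locates it by sequencing RNA fragments bound by an antibody against the mark. The series holds 2 m6A immunoprecipitation (IP) samples and 2 input samples of whole brain from mice of strain C57BL/6J, all 4 weeks old. By the design text the mice carried Prrc2a flox/flox, an allele open to Cre recombination, and no Cre driver is named for them. All samples share this genotype, so that no treated or mutant group is compared. Peaks were called by the authors in each IP replicate against its own input, and the strength of a peak is its fold enrichment, the IP signal divided by that of the input on a linear scale. The inputs entered only through this ratio. Whole brain mixes cell types, and a peak list does not tell fewer cells of a type from less RNA per cell.

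The tissue label was checked with genes typical of brain and of other organs. All 10 brain genes (among them Snap25, Rbfox3, Gfap and Mbp) carried a peak in both replicates, against 1 of 6 genes typical of liver, muscle, heart, pancreas or kidney. The exception was Myh6, a heart myosin.

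In neurons, the MAP1 proteins and MAP2 decorate axonal or dendritic microtubules, MAP6 protects microtubules from cold, MAP7-family proteins recruit kinesin, and doublecortin, encoded by Dcx, is made by migrating young neurons. m6A is placed cotranscriptionally by a methyltransferase complex, mostly within the consensus GGAC or its longer form GGACT, where the A is methylated. In most mRNAs the mark is found near the stop codon and in unusually long internal exons, and it is sparse next to splice junctions.

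The sites below show the consensus in 6 of the member transcripts. For each of these genes, the strongest interval found in both replicates that holds GGACT (else GGAC) was taken, and the occurrence nearest its middle is printed 5′ to 3′ with 10 nt on each side, with GGACT or GGAC in capitals. For Dcx, which has no such interval, the site is from its only peak. A peak is much wider than a site, so a printed site is a candidate by its letters and was not itself measured.
Map1s: tctgcatggtGGACccggaggcgc
Map2: agaaatccagGGACTttttgaagag
Map4: gttccacccgGGACTcaccgagggg
Map6: tgatgcgacaGGACTaccgcgcctg
Map7d1: ataatgaagaGGACTcggaaatcag
Dcx: caaggcactaGGACctagaaggca

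The Map1s window (chr8:70914710-70914733, plus strand, build GRCm38 as for all coordinates here) is in coding sequence of exon 5, the longest exon of its gene, and the Map2 window (chr1:66413539-66413563, plus) is in the long exon 7. The remaining windows lie outside long internal exons. The Map4 window (chr9:110052465-110052489, plus) and the Map6 window (chr7:99268374-99268398, plus) are in coding sequence of first exons. The Map7d1 window (chr4:126233610-126233634, minus) is in exon 13, which is only 54 nt long, and the Dcx window (chrX:143933175-143933198, minus) is in the 5′ UTR.

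A total of 49 peaks in replicate 1 and 48 in replicate 2 overlapped exons of the 8 genes. Of these, 45 replicate 1 peaks (91.8%, 95% Wilson interval 80.8 to 96.8) and 40 replicate 2 peaks (83.3%, 70.4 to 91.3) overlapped a peak of the other replicate. Among all exonic peaks of protein-coding genes the shares were 67.8% of replicate 1 and 76.8% of replicate 2 peaks. The replicate 1 share of the members moved to 79.6% when at least 50% of both peaks had to overlap. The intervals count peaks as independent, which neighbouring peaks of a transcript are not.

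The bases common to both replicates formed 45 shared intervals, of 192 to 4059 nt with a median of 407 nt, against a median of 337 nt over all exonic shared intervals. Shared intervals were found in 7 of the 8 genes, while 45.5% of all protein-coding genes have at least 1. Map2 had the most, with 10, followed by Map1b with 8, Map4 with 7, Map1a and Map7d1 with 6, Map6 with 5 and Map1s with 3. Dcx had none. Only 7.8% of protein-coding genes have 4 or more shared intervals, and 6 of the 8 members do. The number of intervals depends on how the caller splits a broad region, so the covered length is also given for each gene.

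**Figure D1:**
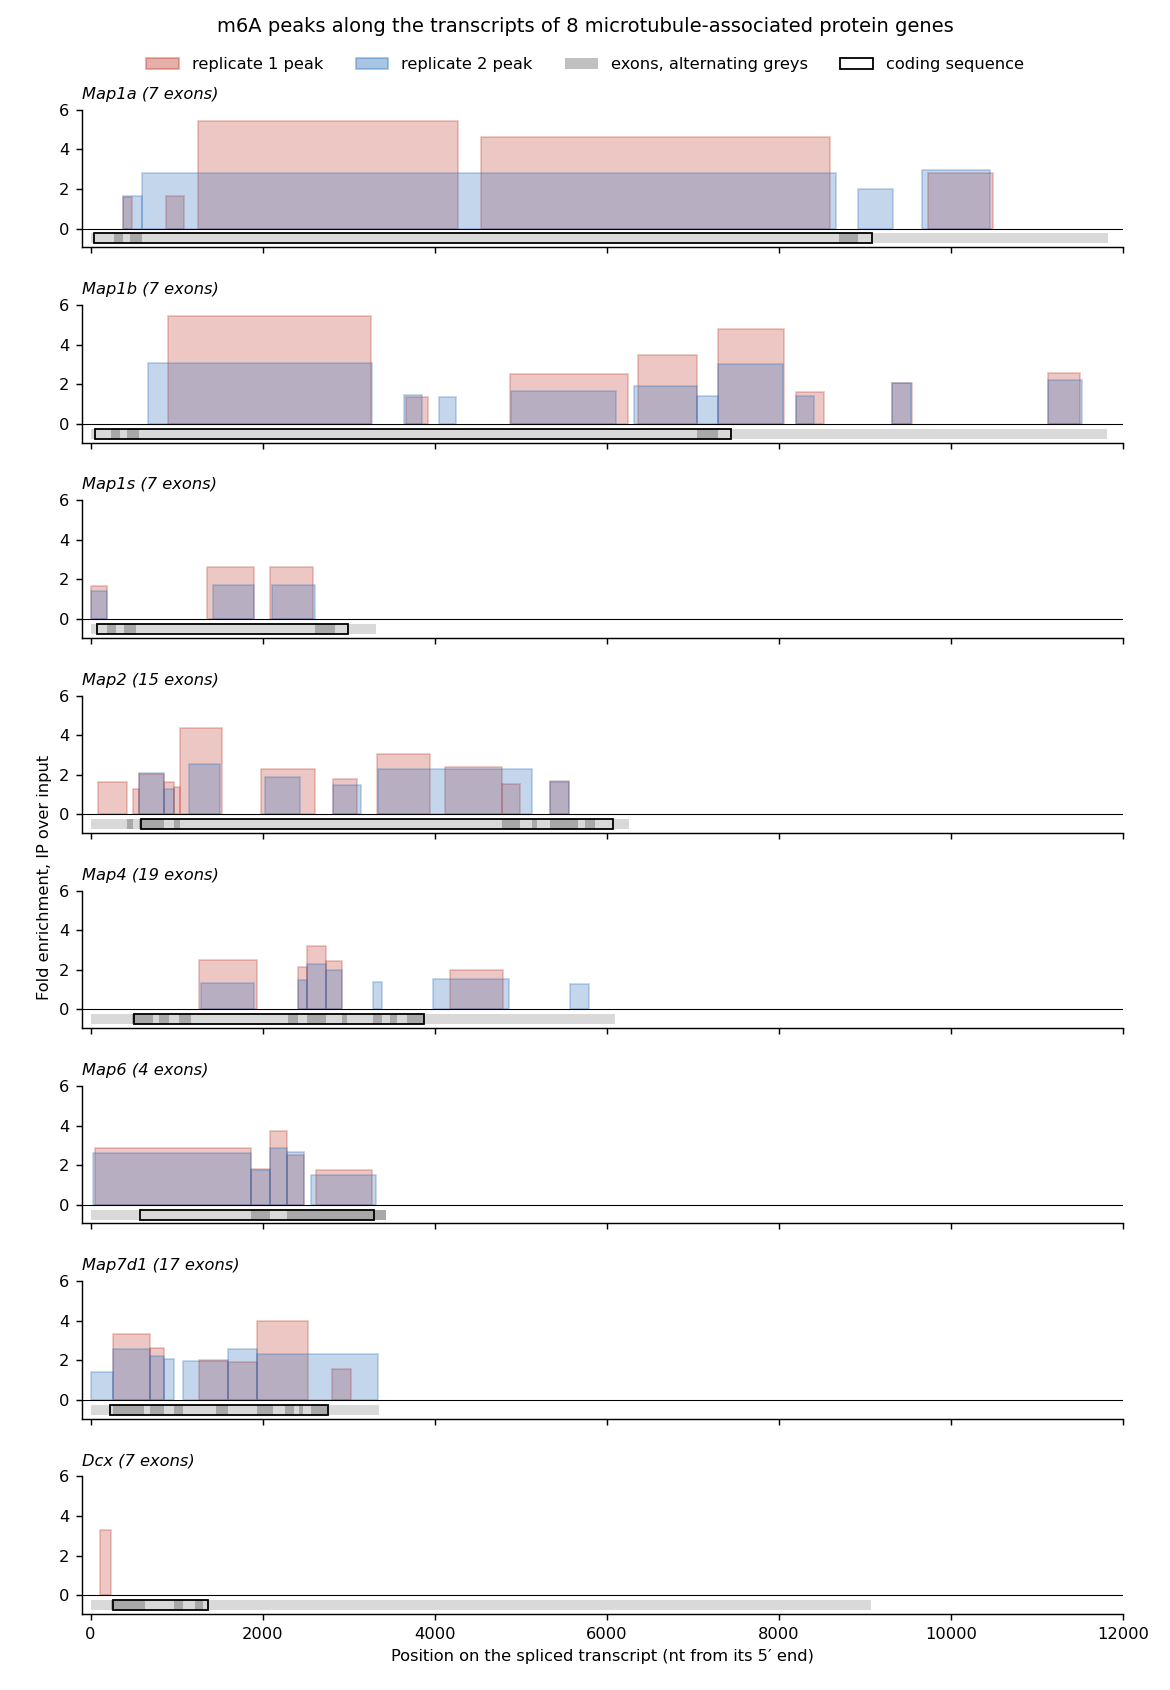
Peaks of replicate 1 (red) and replicate 2 (blue) along the spliced transcript of each gene, with position in nt from the 5′ end on the x axis and fold enrichment of IP over input on the y axis. Grey bars under each panel are exons and the black outline is the coding sequence. The broad blocks over exon 5 of Map1a and Map1b, the near-complete cover of Map6 and the Dcx transcript, bare but for 1 replicate 1 peak in its first exon, can be seen. Peaks in exons of other annotated transcripts (1 shared interval of Map1a, 1 of Map2 and 2 of Map4) are not drawn.

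The microtubule-associated protein 1 genes share a layout of 7 exons in which exon 5 holds most of the coding sequence. Exons 3 and 4 are 83 and 141 nt in all 3 genes, while exon 5 measures 8104 nt in Map1a (chr2:121299269-121307372), 6490 nt in Map1b (chr13:99429212-99435701) and 2089 nt in Map1s (chr8:70912906-70914994). Map1a encodes a heavy chain prominent in mature neurons and Map1b one that is abundant while axons grow. Peaks of both replicates covered 89.8% of exon 5 in Map1a, 68.7% in Map1b and 44.9% in Map1s. The order of the 3 genes was thus the order of their exon lengths, and it was the same in each replicate alone. Replicate 1 covered 89.8%, 72.2% and 50.1% of the exon, and replicate 2 99.5%, 76.6% and 46.5%.

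Map1a exon 5 carried 7281 nt under peaks of both replicates, the most of any of 95348 internal exons of genes with a shared interval, although it is the fourth longest of them. Replicate 1 had 3 peaks there, with fold enrichments of 1.63, 5.45 and 4.62 from the 5′ to the 3′ end. Replicate 2 had 1 peak of 8087 nt at a fold enrichment of 2.79 that spans them all. Both replicates cover the exon, and replicate 1 alone divides it. Map1a had a further peak in the 3′ UTR, 1012 nt past the stop codon, with 2.79 and 2.96. A weaker interval over exons 3 and 4 had 1.58 and 1.62. Another, with 2.53 and 2.10, covered the 89-nt first exon of a shorter Map1a transcript and also exons of the antisense gene Gm14978, and the lists give no strand to tell them apart.

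In Map1b, exon 5 held 4 shared intervals. The strongest, of 2366 nt near the 5′ end of the exon, had 5.43-fold enrichment in replicate 1 and 3.09-fold in replicate 2. The interval at the 3′ end of the exon had 3.50 and 1.90, the next one towards the 5′ end 2.53 and 1.68, and a short one in the middle 1.37 and 1.47. Replicate 1 was higher in the stronger 3 and lower in the weakest. The Map1b stop codon was under a peak of 4.78 and 3.03, and 3 more shared intervals followed in the 3′ UTR of 4360 nt, at 859, 1977 and 3868 nt past the stop codon. Their fold enrichments were 1.60 and 1.41, 2.05 and 2.06, and 2.54 and 2.19. Map1b was thus the member with peaks spread over coding sequence, stop codon and 3′ UTR.

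Map1s, the short ubiquitously expressed relative, had 2 shared intervals in exon 5 with 2.63 and 1.71 and with 2.61 and 1.72. Its remaining interval covered the whole first exon of 196 nt, including the start codon, with 1.65 and 1.43. No Map1s peak exceeded a fold enrichment of 2 in replicate 2. Ranked by the strongest interval (by the lower value of the 2 replicates), Map1s stood at the 9.25th percentile of genes with a shared interval, Map1a at the 56.7th and Map1b at the 70.0th.

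Map2 and Map4 belong with Mapt (tau) to a family that binds microtubules through C-terminal repeats. Map2, the main dendritic member, has a long exon 7 of 3741 nt (chr1:66412407-66416147), which is left out of the short MAP2 isoforms. It was covered at 62.1% in both replicates, 71.1% in replicate 1 and 68.2% in replicate 2. From 5′ to 3′ the 5 shared intervals of this exon had fold enrichments of 4.38 and 2.52, 2.30 and 1.88, 1.76 and 1.49, 3.07 and 2.30, and 2.41 and 2.30. The strongest stood at the 5′ end of the exon and the weakest in its middle in both replicates. The last 2 and the interval over exon 8 were 1 peak of 2234 nt in replicate 2, so that their replicate 2 value is the same.

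Outside exon 7, Map2 had shared intervals over exon 4, which holds the start codon (2.02 and 2.10), exon 5 (1.63 and 1.30), exon 8 (1.54 and 2.30) and exon 12 (1.67 and 1.62). One more, at chr1:66440673-66440954 with 2.60 and 1.85, lies in the longer 3′ UTR of other Map2 transcripts, 1808 nt past their stop codon. Replicate 1 alone had peaks over exons 1, 3 and 6 with 1.63, 1.28 and 1.39. Replicate 2 alone had a peak at chr1:66386906-66387149 with 3.13, over the first exon of another annotated transcript. The latter was the strongest Map2 peak of replicate 2 and has no counterpart.

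Map4, which is found in many tissues beside brain, has an exon 7 of 1134 nt (chr9:110034373-110035506) that was covered at 54.3%, with a fold enrichment of 2.51 in replicate 1 and 1.35 in replicate 2. Its strongest peaks were elsewhere. At chr9:110052060-110052748 the values were 3.97 and 3.09, and at chr9:110053103-110053570 they were 2.84 and 3.49. Both lie in a first exon of 1475 nt of the transcript ENSMUST00000164930.7, the former over its start codon, and neither touches an exon of the transcript drawn. Short exons 9, 10 and 11 were each covered whole, with 2.13 and 1.50, 3.21 and 2.31, and 2.44 and 2.00. In the 3′ UTR, an interval 609 nt past the stop codon had 2.02 and 1.56.

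Map6 and Map7d1 have no internal exon of 400 nt or more, and yet their transcripts were among the most covered. Map6 has 4 exons, and a peak of both replicates overlapped each. The first exon, of 1867 nt, was covered at 97.3% with 2.87 and 2.63, exon 2 whole with 1.81 and 1.76, and exon 3 whole with 3.74 and 2.86. The last exon held 2 intervals, with 2.51 and 2.67 and with 1.73 and 1.49. In all, 89.7% of the Map6 transcript lay under peaks of both replicates, at the 99.7th percentile of genes with a shared interval. The first and the last exon count as long here, but they are not internal.

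Map7d1, a MAP7-family gene with 17 exons, had peaks of both replicates over 12 of its 15 internal exons, all shorter than 400 nt. The highest value of replicate 1 was 3.97, over exons 10 to 15, where replicate 2 had 2.35 in a peak of 2342 nt that runs on to the last exon. Exons 2 and 3 together had 3.31 and 2.56, exon 4 had 2.63 and 2.21, exons 7 and 8 had 2.03 and 1.96, and exon 9 had 1.93 and 2.56. Peaks of both replicates covered 61.7% of the transcript and those of replicate 2 alone 96.3%. The coverage of the replicates differed more here than in any other member. The introns between exons 2 and 3, between exons 7 and 8 and within exons 10 to 17 are short, and a peak called on the genome can run across them. No peak spanned the other introns of Map7d1.

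Dcx stood apart from the other members. Its transcript of 9074 nt, of which 7709 nt are 3′ UTR, held 1 peak in replicate 1 and none in replicate 2. This peak, at chrX:143933006-143933205 with a fold enrichment of 3.28, covers 136 nt of the first exon and reaches into the intron. The Dcx transcript does hold the consensus, with 15 occurrences of GGAC and 8 of GGACT. GGAC stood at 1.65 per kb against 3.85 per kb outside peaks in all genes with a shared interval. For GGACT the values were closer, at 0.882 and 0.980 per kb. Read numbers were not in the files, so that the missing peaks cannot be set against the amount of Dcx RNA sequenced.

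Fold enrichment was compared over 40 pairs of matching member peaks, each the best partner of the other. Replicate 1 ranged from 1.37 to 5.43 with a median of 2.52, and replicate 2 from 1.30 to 3.49 with a median of 2.03. Replicate 1 was higher in 32 pairs (80.0%, Wilson interval 65.2 to 89.5), and the share over 20996 exonic pairs was 78.3%. The medians of all pairs were 2.98 and 2.30. Member peaks were thus wider than typical peaks but of slightly lower enrichment, and the share of pairs higher in replicate 1 was near that of the whole lists. In 20 of the 40 pairs both replicates reached a fold enrichment of 2, as they did in 61.5% of all exonic pairs.

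**Figure D2:**
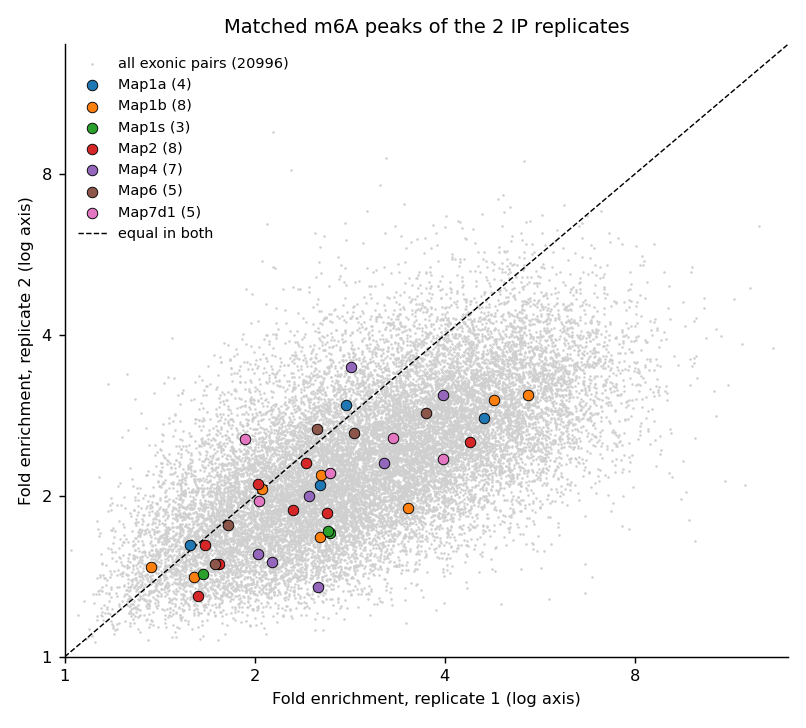
Fold enrichment of matched peaks in replicate 1 (x axis) and replicate 2 (y axis), both on log axes, for 40 member pairs coloured by gene and for 20996 exonic pairs of all protein-coding genes in grey. Most member points, 32 of 40, lie under the dashed line of equal values, within the grey cloud.

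The position of the intervals was then examined by exon type. Long internal exons (neither first nor last, at least 400 nt) held the midpoint of 14 of 35 placed member intervals, or 40.0% (Wilson interval 25.6 to 56.4), and of 15.0% of all placed intervals. Without Map1a and Map1b the share was 30.4%. Such exons make up 44.2% of the bases of the member transcripts but 7.93% of those of all genes with a shared interval, so that the members' share of midpoints was close to their share of bases. Counted by covered bases in place of midpoints, 62.3% of the members' covered bases were in these exons, which is above their share of transcript bases. The shares above use the transcript with the longest coding sequence, which for Map4 is a fragment. On complete transcripts such exons make up 39.1% of member bases and held 15 of 37 midpoints (40.5%). All 5 long internal exons of the complete member transcripts carried a shared interval, as did 75.1% of those of all genes with a shared interval.

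Coverage takes the length of the exons into account. Over all 8 genes, 45.1% of transcript bases lay under peaks of both replicates, with an SD of 3.25 between the values of the single replicates. Without Map1a and Map1b the share was 33.4%, and without Dcx 54.3%. These shares use the transcripts with the longest coding sequence. On complete transcripts, used for the shares that follow, the members had 45.9% and all genes with a shared interval 19.7%. Without Map1a and Map1b the share on complete transcripts was 35.5%. In coding sequence of long internal exons the share was 72.4% in the members and 48.3% in all genes. This value was 55.7% without Map1a and Map1b, and Map1s, at 44.9%, was under that of all genes. In coding sequence of other exons it was 46.9% in the members and 18.9% in all genes. Map6 (93.9%) and Map7d1 (72.8%) supplied most of this, and without both of them the share was 22.0%. Map2 had 46.3% there and Map4 22.9%, while Map1a (11.3%), Map1b (17.2%), Map1s (14.9%) and Dcx (0%) were under the share of all genes. In 3′ UTRs the members had 16.2% and all genes 15.2%, but Dcx holds 7709 of the 18252 nt of member 3′ UTR. Over the 7 members with a shared interval the 3′ UTR share was 28.1%, with 26.3% in Map1a, 31.9% in Map1b, 28.3% in Map4, 37.4% in Map7d1 and 0% in Map1s, Map2 and Map6. The Map2 transcript used has only 181 nt of 3′ UTR. Another Map2 transcript has 3576 nt, and the shared interval that lies there is not counted in the 0%. No test was applied, because the 8 genes were named by hand and peaks within a gene are not independent.

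**Figure D3:**
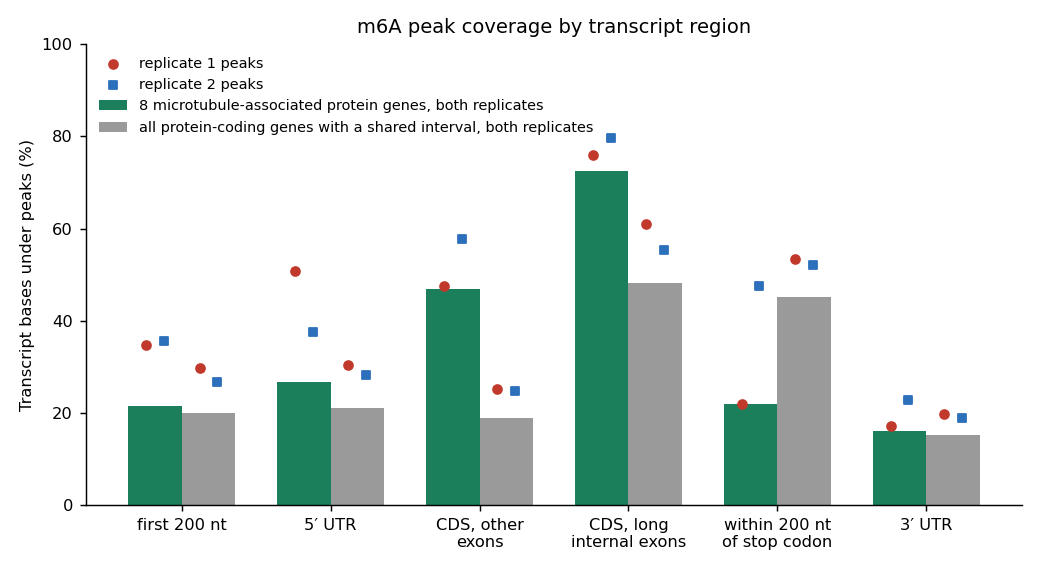
Share of transcript bases under peaks of both replicates (bars) for the 8 genes (green) and all protein-coding genes with a shared interval (grey), by transcript region, with the single replicates as points. The green bar is higher in both kinds of coding exon, similar in the 3′ UTR, where Dcx at 0% is included, and lower around the stop codon, where replicate 2 of the members reaches 47.5% and replicate 1 21.9%.

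Short internal exons contributed as well. Of 57 internal exons under 400 nt in the 7 genes with a shared interval, 23 had a base under peaks of both replicates, whereas 7.29% of such exons did in all genes with a shared interval. Map7d1 supplied 12 of them, Map2 4, Map4 3, and Map1a and Map6 2 each, while Map1b and Map1s had none. The exons are not all separate sites. In Map7d1, 1 interval runs over exons 10 to 15, 1 over exons 2 and 3 and 1 over exons 7 and 8, and in Map1a 1 runs over exons 3 and 4. By length, coverage in the members was 26.2% for exons under 100 nt, 36.1% from 100 to under 200 nt and 57.4% from 200 to under 400 nt. The same classes had 5.11%, 6.29% and 11.7% in all genes. Exons of 2000 nt or more had 73.4% in the members and 44.4% in all genes.

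Within long internal exons, coverage was low next to splice junctions. In the first 50 nt from the nearest junction, 23.4% of member bases were under peaks of both replicates, against 24.5% in all genes. The share rose to 53.8% at 100 to 149 nt and 77.3% at 300 to 399 nt in the members, and to 45.7% and 61.6% in all genes. Beyond 1000 nt the values parted, with 81.3% in the members and 38.9% in all genes. The members have 5 such exons, and the bases far from a junction come mainly from Map1a and Map1b. Not every exon showed the gap at both ends: within 100 nt of a junction, coverage was 0% in Map1a and Map4, 33.5% in Map1s, and 50.0% in Map1b and Map2, where a peak ran to the 3′ end of the exon. The first base of the exon covered in both replicates was 282 nt in for Map1a, 334 for Map1b, 903 for Map1s, 101 for Map2 and 125 for Map4. Some of these gaps were absent in a single replicate. The replicate 2 peak of Map1a began before exon 5. In Map2 a replicate 1 peak began at the first base of exon 7, and in Map1s a replicate 2 peak ended at the last base of exon 5.

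**Figure D4:**
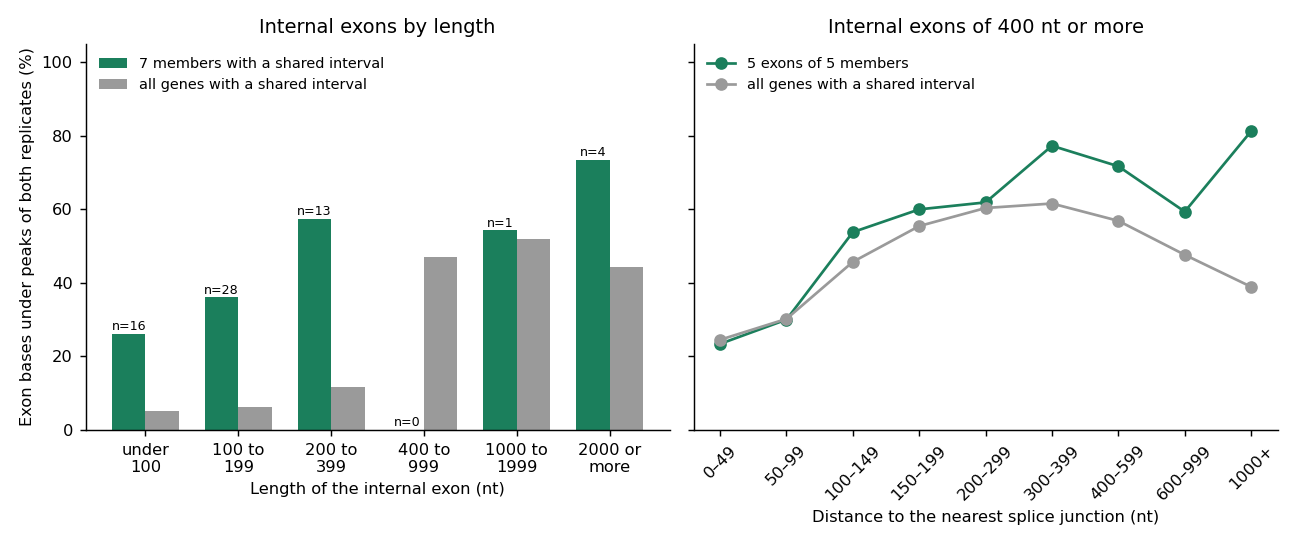
Left, share of internal exon bases under peaks of both replicates by exon length, for the 7 members with a shared interval (green, number of exons above the bars) and all genes with a shared interval (grey). Right, the same share within internal exons of 400 nt or more by distance to the nearest splice junction in nt. The members lie above all genes in every length class they occupy, and both curves start near 24% and rise up to 400 nt from the junction.

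The stop codon, where m6A is often found, was covered less often when peaks of both replicates were required. It was under a peak in both replicates in 1 member, Map1b, while this held for 51.5% of genes with a shared interval and an annotated stop codon. The count depended on the replicate. Replicate 1 alone covered the stop codon of Map1b only, and replicate 2 alone those of Map1a, Map1b, Map6 and Map7d1, where the background was 54.7% of genes with a replicate 1 peak and 55.7% with a replicate 2 peak. In Map1a the replicate 2 peak had a fold enrichment of 1.98 and in Map6 1.49. Peaks of both replicates came within 200 nt of the stop codon in 3 members, Map1b, Map6 and Map7d1, and in 69.7% of genes with a shared interval. Over the bases within 200 nt of the stop codon, coverage in both replicates was 21.9% in the members and 45.2% in all genes with a shared interval. In replicate 1 alone it was 21.9% against 53.5%, and in replicate 2 alone 47.5% against 52.1%.

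In Map1s, Map2, Map4 and Dcx the stop codon was under no peak in either replicate. On the transcripts drawn, the member intervals in 3′ UTRs were few and lay in Map1a, Map1b, Map4 and Map7d1, with 7 midpoints in all, against 30 in coding sequence. The Map2 interval in the longer 3′ UTR of other transcripts is not among them. No member interval had its midpoint in a 5′ UTR of the transcripts drawn. By bases, 26.8% of member 5′ UTR lay under peaks of both replicates, and 21.2% in all genes with a shared interval. Map1s had 100%, Map6 91.1% and Map2 3.9%, while the other members had 0%. Without Map6 and Map7d1 the 5′ UTR share was 6.27%. Of the 8 intervals that could not be placed, 4 lay in exons of other transcripts and 4 had their midpoint in an intron between covered exons.

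The consensus was counted on the transcript strand in the spliced sequence, with overlaps allowed and each GGACT also counted as GGAC. GGAC occurred 5.45 times per kb inside shared intervals of the members and 2.95 times per kb outside, a ratio of 1.85. Over all genes with a shared interval the ratio was 1.58. The sets are unlike, because Dcx, without a shared interval, is among the members. Dcx supplies 9074 of the 29849 nt outside, at only 1.65 GGAC per kb, which raises the members' ratio. A higher ratio in the members than in other genes can thus not be read from these values. With the longest annotated coding sequence of each gene the members' ratio was 1.89. Of the 45 intervals, 31 held GGAC and 15 GGACT on the transcripts searched. The Map1a and Map2 intervals that lie only in other annotated transcripts have 0 nt there, so they were not searched and count as without the motif. The share over all shared intervals was not counted, and a wider interval has more room for the motif. These counts thus do not show whether member intervals hold the motif unusually often. Ratios of single genes rest on few matches outside Map1a and were not tested. The ratio was 1.93 in Map1a (59 GGAC inside and 14 outside) and in Map1b (24 and 12), 1.59 in Map4 (9 and 14) and 2.52 in Map6 (22 and 1, the latter in 353 nt). It was 0.769 in Map1s (6 and 15), 0.875 in Map2 (8 and 9) and 0.775 in Map7d1 (10 and 8). The looser consensus DRACH (any base but C, a purine, then A, C, and any base but G) gave 1.20 over the members. In Dcx, DRACH stood at 20.5 per kb, against 19.6 per kb outside peaks in all genes with a shared interval. GC content was 55.2% inside and 47.9% outside the intervals of the members, and its part in these ratios was not tested.

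Map6 held 8 GGACT, all of them inside its intervals, and Map2 held 2, 1 inside and 1 outside. The strongest Map2 interval, at the 5′ end of exon 7, contained no GGAC but 10 DRACH matches, and the strongest Map6 interval, over exon 3, no GGAC and 9 DRACH matches. A searched interval without GGAC says only that these letters are absent from its bases on the spliced transcript.

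**Figure D5:**
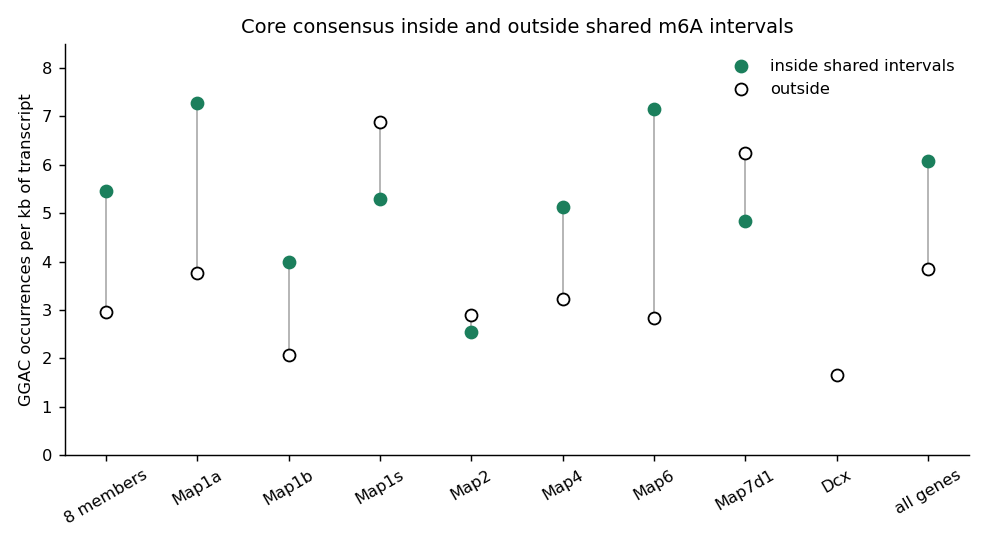
Occurrences of GGAC per kb of spliced transcript inside (filled) and outside (open) intervals under peaks of both replicates, for the 8 genes together, each gene, and all genes with a shared interval. The filled point is above the open one for the 8 genes together, Map1a, Map1b, Map4, Map6 and all genes, and below it for Map1s, Map2 and Map7d1. Dcx has no shared interval and so only an open point.

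The long member exons were set beside the internal exons with the most shared interval midpoints. These were exon 12 of Spen and exon 11 of Srrm2 with 8 each, and exon 2 of Tcf20, exon 3 of Son and exon 5 of Pclo with 7 each. Map2 exon 7 had 5 midpoints, Map1b exon 5 4 and Map1a exon 5 3, so that by number the exons of Map1a and Map1b ranked lower than by covered bases. By covered bases Map1a exon 5 ranked first, with 7281 nt, Spen exon 12 second, with 6197 nt, and Map1b exon 5 seventh, with 4456 nt. Over 862 internal exons of at least 1000 nt the median coverage was 54.3% (quartiles 27.0 and 74.3). Map1a, Map1b and Map2 lay above this median, Map4 at it and Map1s under it.

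Most paralogs of the members carried shared peaks too. Mapt had 9 shared intervals, with 3.60 and 2.62 at the strongest, and its stop codon was under a peak in both replicates. Map7 had 6, with 6.46 and 3.14, and Map7d2 9, with 4.71 and 2.77, at the strongest. Neither had its stop codon covered in both replicates. Map7d3 had no peak, and Map6d1 had 1 shared interval, over the stop codon, with 4.54 and 2.32. Of the doublecortin-like kinases, Dclk1 had 6 shared intervals and Dclk2 3, both including the stop codon, whereas Dcx had none.

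A wider list of 39 further microtubule genes (tubulins, stathmins, end-binding and minus-end proteins and the paralogs above) was counted for comparison. Of these, 34 had a shared interval, as did 45.5% of all protein-coding genes. In 25 of the 34 the stop codon was under a peak in both replicates, which 51.5% of all genes with a shared interval show. Among the 8 members it was 1 in both replicates and 4 in replicate 2 alone. Among the 34 genes of the wider list with a shared interval, the median coverage was 30.6%, against a median of 18.2% over all genes with a shared interval (quartiles 9.71 and 31.2). In the 7 members with a shared interval, coverage of the complete transcript ran from 28.8% in Map4 and 34.2% in Map1s over 50.4% in Map2, 50.9% in Map1b and 61.7% in Map7d1 to 68.6% in Map1a and 89.7% in Map6. For Map4 the share was 11.9% on the transcript with the longest coding sequence, which is a fragment. The order differed between the replicates. In replicate 1 alone Map2, at 63.7%, was above Map1b (54.1%) and Map7d1 (61.7%). In replicate 2 alone Map4, at 38.6%, was above Map1s (35.2%), and Map7d1, at 96.3%, was above Map1a (80.2%) and Map6 (93.5%). Map4 and Map1s stayed the lowest of the 7 in each replicate.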

How the data were processed

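m6A-seq was performed by the authors on mRNA of whole brain, with 2 IP and 2 input samples. Per the study's methods, reads were trimmed, aligned to mm10 with TopHat, kept when uniquely mapped, and peaks were called with MACS2 for each IP against its own input, without a fragment model and with duplicates kept. The submitters' processing notes list TopHat2 2.0.9, whereas the methods give another version. The deposited values are peak starts, ends and the fold enrichment given by the caller, a ratio of IP to input signal. Keeping duplicates can raise this ratio where few molecules were sequenced. The lists hold no counts, strand, summit or q-value, so that depth is unknown, and the inputs, which have no processed file, were not analysed on their own.

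Peaks were taken as 1-based with both ends counted (the shortest was 200 nt in both lists) and overlapped with exons of GENCODE M21 on GRCm38, which has the mm10 sequences. Peaks of the replicates with at least 1 bp in common were shared, and overlap counts were checked against bedtools 2.31.1. Midpoints were placed on the transcript with the longest coding sequence of each gene. For Map4 that transcript lacks both ends of the coding sequence, so that the description of single genes, regions, exons and motif rates uses the longest complete one. This choice was made after seeing the data. Motifs and printed sequences were read from the GENCODE transcript sequences, and sites of Map1a and Map1b are not reported here. Scripts ran in Python 3.11.15 with numpy 2.4.6, pandas 2.3.3, scipy 1.17.1 and matplotlib 3.10.9, and were tested on simulated peaks. Shares have 95% Wilson intervals, which cover counting error only. No test between groups was possible with 1 group of 2 IP samples, and whether these came from separate animals is stated only as biological replicates.

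Named are the 8 members, their paralogs and the 5 internal exons with the most interval midpoints. The members, gene lists and thresholds were chosen with earlier results of these data known. The alternatives were a stricter overlap, a fold enrichment of at least 2, merging of peaks within 100 bp, each replicate alone, other exon and stop codon limits, bases in place of midpoints, all exon bases and other motifs.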

Additional observations from a re-analysis of the deposited data

How the results depend on the processing

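Of 43 values recomputed under an alternative, 26 moved by less than the replicate spread or the Wilson interval and 17 by more. Requiring overlap of 50% of both peaks lowered the shared replicate 1 peaks to 79.6%. Keeping peaks enriched 2-fold or more left 22 shared intervals, 66.7% of replicate 1 peaks shared, 32.3% of transcript bases covered and a GGAC ratio of 1.63. With each replicate alone, peaks numbered 48 to 49, the share in long internal exons was 31.6% to 35.9%, stop codons covered were 1 to 4, coverage was 47.9% to 52.5% and the GGAC ratio 1.79 to 1.94, and the count of 4 stop codons is that of replicate 2. The share in long internal exons was 57.1% with exons from 200 nt and 62.3% by bases. A peak within 200 nt of the stop codon was found in 3 members. Coverage was 29.3% over all exon bases of all annotated transcripts. The motif ratio was 1.74 for GGACT and 1.20 for DRACH. Without Map1a and Map1b, chosen after seeing the data, coverage was 33.4% and the GGAC ratio 1.65, and coverage was 54.3% without Dcx and 40.6% without Map6 and Map7d1, likewise added. The complete transcript of Map4, also added after seeing the data, moved none of the 4 pooled results it touches, but raised the coverage of Map4 itself from 11.9% to 28.8%. The cause of these shifts was not tested, beyond the smaller number of genes or peaks that some alternatives leave. Unknown depth limits every absent peak: the coverage behind a gene without one, such as Dcx, is not known. No paired analysis was possible because only the IP samples have peak lists, and the inputs that share their replicate numbers enter through the ratio.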

Other observations

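In replicate 1 alone, peaks lay in introns of Map6, at chr7:99321761-99322104 with a fold enrichment of 4.27 and at chr7:99329334-99329796 with 1.85, and neither had a counterpart in replicate 2. Replicate 2 had 8 unshared exonic peaks in the members and replicate 1 had 4, the reverse of the whole lists, in which replicate 1 has more unshared peaks. The highest fold enrichment among these was that of the Dcx peak of replicate 1, followed by the Map2 peak of replicate 2 over the first exon of another transcript.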
